A study of Mus musculus with 6 samples.

Results

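The genes of glycogen breakdown were examined in gastrocnemius (Gas) muscle of wild-type (WT) mice and of mice without miR-92b (M92KO). The group holds 9 of the 34714 gene symbols in the count table and was taken by symbol. It comprises the glycogen phosphorylases Pygm, Pygb and Pygl, the phosphorylase kinase subunits Phka1, Phka2, Phkb, Phkg1 and Phkg2, and the lysosomal acid alpha-glucosidase Gaa. All 9 genes passed the filter on low counts. The knockout removed the miR-92b exons in every tissue of C57BL/6 mice (miR-92b-/-), so the change is not limited to muscle fibres. WT mice were C57BL/6 mice of the same age. All mice were male, 8 weeks old, untreated and given standard chow and water ad libitum. The study's methods describe an overnight fast before muscle was collected, without naming the sequenced mice. Each genotype had 3 libraries with 1 mouse for each library, and the question was how the loss of miR-92b changes the muscle transcriptome.

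Glycogen phosphorylase removes glucose units from the ends of glycogen chains as glucose 1-phosphate. Pygm encodes the muscle isozyme, Pygb the brain isozyme and Pygl the liver isozyme. Phosphorylase kinase switches phosphorylase on by phosphorylation, in response to calcium and to adrenergic signals through cAMP. The kinase holds alpha and beta regulatory subunits, a catalytic gamma subunit and calmodulin as its delta subunit. The alpha and gamma subunits each have a muscle form (Phka1, Phkg1) and a liver form (Phka2, Phkg2), and Phkb serves both tissues. Gaa works apart from this cascade and breaks glycogen down inside lysosomes. Inherited loss of PYGM, PYGL or GAA causes McArdle, Hers and Pompe disease.

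The deleted gene gives 2 mature miRNAs, one from each arm of its hairpin. They are shown with the seed (bases 2 to 8) in capitals, because the seed sets which transcripts a miRNA can pair with. The sequences are from RefSeq (GRCm38.p6, chromosome 3, minus strand, chr3:89227126-89227147 for miR-92b-3p and chr3:89227165-89227188 for miR-92b-5p).
miR-92b-3p: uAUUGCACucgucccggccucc
miR-92b-5p: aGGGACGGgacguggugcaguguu

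The 3′-UTRs of the 9 genes were searched on the sense strand for the complements of these seeds. For miR-92b-3p the whole seed pairs with GTGCAAT, the seed without its last base and with an added A pairs with TGCAATA, and both overlap in GTGCAATA. None of these letters was found in the 9 genes (0 of 9). Of the 13495 genes searched, 14.5% held at least 1 of these matches. For miR-92b-5p the corresponding letters were CCGTCCC for the whole seed, CGTCCCA for the shifted match and CCGTCCCA for both, held by 0 of the 9 genes and by 5.93% of all genes searched. The shorter match TGCAAT, which all the miR-92b-3p matches contain, was present in 3 of the 9 genes and in 27.4% of all genes. The shorter match CGTCCC for miR-92b-5p was present in 0 of the 9 genes and in 10.2% of all genes. Those of Pygm and Gaa are given with the match in capitals, to show the short matches that the group holds (GRCm38, plus strand, from GENCODE transcripts). They lie at chr19:6398234-6398239 in Pygm and at chr11:119273076-119273081 in Gaa.
Pygm: tgagtctgttTGCAATtcct
Gaa: tcagagcttcTGCAATcagc

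The match was in both complete Pygm transcripts and in 1 of 5 Gaa transcripts. The longest 3′-UTR of a member ranged from 172 bases in Pygl to 2067 bases in Phka1. A match is a description of letters and not a measured binding site.

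The libraries held between 38246649 and 48209846 counts in WT and between 33160508 and 37019640 counts in M92KO mice, so every M92KO library was the smaller. Counts were scaled to library size as CPM, counts brought to a common library total, with TMM factors between 0.981 and 1.03. The detection floor was set at 3 counts, or 0.0629 to 0.0916 CPM, and allows for counting error alone. Every value of the 9 genes was above it. The counts held no row named Mir92b, the knocked-out gene, so the labels could not be checked against it. The muscle identity was plain, with 10 fast-fibre and contractile markers summing to 118471 to 131280 CPM. Adipoq, the defining fat cell marker, stayed at 0.673 to 2.05 CPM. The first M92KO library stood apart from the second and the third in several glycogen genes. For Pygb, Gaa, Phkg1 and those of the 7 tested ratios that it moved most, values are given with and without it.

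None of the 9 glycogen breakdown genes differed between the genotypes in edgeR's quasi-likelihood test. At an adjusted p-value of 0.05 the count was 0 of 9, beside 0% of the 15788 genes tested. At an unadjusted p-value of 0.05 the count was 0 of 9, beside 12.4% of all genes. DESeq2 gave 0 of 9 at an adjusted p-value of 0.05, beside 312 of the 15788 genes. The log2 fold changes (M92KO over WT) ran from -0.22 to 0.13, with 4 above 0 and 5 below 0. Their median was -0.03, beside 0.00 over all genes, and their median size was 0.1, beside 0.12 over all genes. The smallest adjusted p-value among the 9 genes was 0.48. The ranges of the groups were apart in 1 of 9 genes, Pygb, beside 18.4% of all genes. In a bulk muscle sample, fewer cells of a type and less RNA per cell cannot be told apart.

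**Figure D1:**
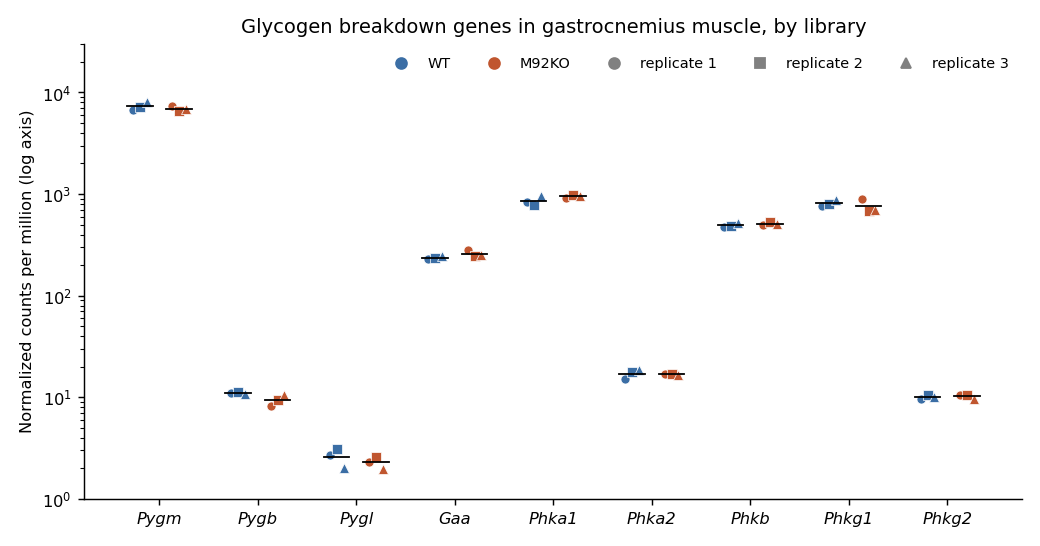
CPM (log axis) of the 9 genes in each of the 3 WT and 3 M92KO libraries, with a line at each group mean and a symbol for each replicate number. Pygm lies between 6563 and 7966 CPM, Gaa, Phkb, Phka1 and Phkg1 between 231 and 969 CPM and the other 4 genes at or below 18.4 CPM, and the genotypes overlap in all genes but Pygb.

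Pygm, the phosphorylase of muscle, was one of the most abundant transcripts of the tissue. The gene lies on chromosome 19 (GRCm38, chr19:6384399-6398459, plus strand, ENSMUSG00000032648). It held between 0.648% and 0.789% of all counts and ranked between the 12th and the 14th gene in each library. Its level was 6684, 7185 and 7966 CPM in WT and 7330, 6563 and 6818 CPM in M92KO mice. The groups overlapped, with the highest value in the third WT library and the lowest in the second M92KO library. The means were 7278 ± 646 CPM and 6904 ± 391 CPM (SD, n = 3 each), or -0.08 on the log2 scale (standard error 0.1, edgeR adjusted p = 0.815). The 95% confidence interval of the fold ran from 0.807 to 1.11. The order of the libraries by Pygm was nearly that of the summed fast-fibre and contractile markers, which gave 118471, 122925 and 131280 CPM in WT and 129680, 119956 and 120245 CPM in M92KO mice. The upper 4 libraries stood in the same order in both, and the part of fibre content in the Pygm values was not tested.

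Pygb, the brain isozyme, was the only gene of the group whose ranges did not overlap between the genotypes, as in 18.4% of all genes. It lies at chr2:150786735-150831758 on the plus strand (ENSMUSG00000033059). WT libraries stood at 11.1, 11.2 and 10.7 CPM and M92KO libraries at 8.21, 9.41 and 10.6 CPM. All 3 M92KO values were below all WT values, though the highest M92KO value nearly reached the lowest WT value, and the M92KO values spread more widely. The means were 11.0 ± 0.251 CPM and 9.41 ± 1.2 CPM (SD, n = 3 each), with a fold of 0.856 (95% confidence interval 0.715 to 1.02). The adjusted p-value from edgeR was 0.48, and the exact two-sided permutation test gave p = 0.1, the smallest that 3 against 3 libraries allow. The log2 fold change of Pygb was -0.22, and came to -0.13 without the first M92KO library and to -0.32 without the third.

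The summed levels of 2 lists of markers of other cell types had ranges apart, beside 18.4% of single genes. The sums of all the remaining marker lists overlapped between the genotypes. The fibroblast markers summed to 1756 to 2318 CPM in WT and 1187 to 1637 CPM in M92KO mice, and all 7 had log2 fold changes below 0, with a median of -0.38. The smooth muscle and pericyte markers summed to 1255 to 1325 CPM in WT and 1159 to 1247 CPM in M92KO mice. That sum followed Rgs5, a pericyte marker at 847 ± 31.5 CPM in WT and 742 ± 39.9 CPM in M92KO mice (SD, n = 3 each), while 5 of 7 markers had a log2 fold change above 0 and the median was 0.04. All 7 markers of each list were above the floor, and their part in the Pygb values was not tested.

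Pygl, the liver isozyme, was the rarest of the group. It lies at chr12:70190811-70231488 on the minus strand (ENSMUSG00000021069). Counts of 124, 119 and 96 were found in WT mice and of 81, 84 and 71 in M92KO mice. These came to 2.68, 3.08 and 2.01 CPM in WT and to 2.33, 2.57 and 1.96 CPM in M92KO mice, with full overlap apart from the lowest M92KO library. The interval of the fold was the widest of the 9, from 0.633 to 1.23 (log2 fold change -0.18, edgeR adjusted p = 0.782). Beside it, the 4 liver markers together stayed at or below 0.165 CPM, and Apoa1, Ttr and Serpina1a were at or under the floor in all libraries.

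The muscle isozyme made up nearly all phosphorylase transcript. Compared per kilobase of annotated exon, Pygm held 99.87% to 99.91% of the phosphorylase level in every library. Pygb held 0.0749% to 0.111% and Pygl 0.0118% to 0.02%. The Pygm share averaged 99.88% ± 0.0148 in WT and 99.89% ± 0.0151 in M92KO mice (SD, n = 3 each, exact permutation p = 0.5). The difference in isozyme make-up was smaller than the spread between mice.

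Phka1 encodes the muscle alpha subunit, which carries regulatory phosphorylation sites of the kinase. It lies on the X chromosome at chrX:102513975-102644246 on the minus strand (ENSMUSG00000034055). WT libraries ranged from 783 to 968 CPM, with 841 CPM between them, and M92KO libraries stood at 925, 969 and 952 CPM. Only 1 M92KO library exceeded the highest WT library. The means were 864 ± 94.6 CPM and 948 ± 22.3 CPM (SD, n = 3 each), a fold of 1.10 (95% confidence interval 0.951 to 1.27, edgeR adjusted p = 0.61). Phka2, the liver alpha subunit, is also X-linked (chrX:160502166-160598878, plus strand, ENSMUSG00000031295). It was at 15.2, 17.7 and 18.4 CPM in WT and at 16.9, 17.0 and 16.4 CPM in M92KO mice, so that all M92KO values fell inside the WT range. An antisense gene, Gm15243, overlaps 115 bases of Phka2 exons, and the strand setting of the counting is not given in the sources used here. The muscle form held 97.72% to 98.25% of the alpha subunit level per length.

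Phkb, the beta subunit shared by muscle and liver kinase, varied little between mice. It lies at chr8:85840959-86061376 on the plus strand (ENSMUSG00000036879). It was at 478, 486 and 514 CPM in WT and at 491, 526 and 508 CPM in M92KO mice. The coefficient of variation was 3.89% in WT and 3.52% in M92KO mice. The interval of its fold was the narrowest of the 9, from 0.925 to 1.15 (log2 fold change 0.04, edgeR adjusted p = 0.84).

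Phkg1 encodes the muscle catalytic subunit and was the gene in which the first M92KO library stood apart. It lies at chr5:129863421-129898549 on the minus strand (ENSMUSG00000025537). WT libraries were at 770, 800 and 878 CPM. The first M92KO library was at 897 CPM, above all WT libraries, and the other two were at 683 and 703 CPM, below all WT libraries. The means were 816 ± 55.5 CPM and 761 ± 118 CPM (SD, n = 3 each). The log2 fold change came to -0.1 ± 0.11 (standard error, edgeR adjusted p = 0.777). Without the first M92KO library the log2 fold change was -0.24 and the edgeR adjusted p-value was 0.116. That comparison leaves 2 M92KO mice, and 401 of all genes then had an adjusted p-value under 0.05. Sumf2, on the other strand, overlaps 630 bases of Phkg1 exons and stood at 18.3 ± 1.86 CPM in WT and 16.3 ± 2.46 CPM in M92KO mice (SD, n = 3 each), far below Phkg1.

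Phkg2, the liver catalytic subunit, gave closely similar values in the 6 libraries. It lies at chr7:127573340-127583307 on the plus strand (ENSMUSG00000030815). WT libraries were at 9.59, 10.6 and 9.97 CPM and M92KO libraries at 10.6, 10.6 and 9.69 CPM. The interval of the fold was 0.879 to 1.19 (edgeR adjusted p = 0.928). Ccdc189 overlaps 876 bases of Phkg2 exons on the other strand and was at 3.15 CPM in WT and 3.03 CPM in M92KO mice, so reads from it could be part of the Phkg2 count. The muscle form Phkg1 held 97.54% to 98.18% of the gamma subunit level per length.

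Gaa, the lysosomal enzyme, had a higher mean in M92KO muscle and did not pass the test. It lies at chr11:119267887-119285454 on the plus strand (ENSMUSG00000025579). WT libraries were at 231, 235 and 245 CPM and M92KO libraries at 281, 244 and 254 CPM. In 2 of 3 M92KO mice the level exceeded that of every WT mouse. The fold was 1.10 (95% confidence interval 0.976 to 1.23, edgeR adjusted p = 0.519). On the log2 scale the difference was 0.13, and 0.07 without the first M92KO library.

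**Figure D2:**
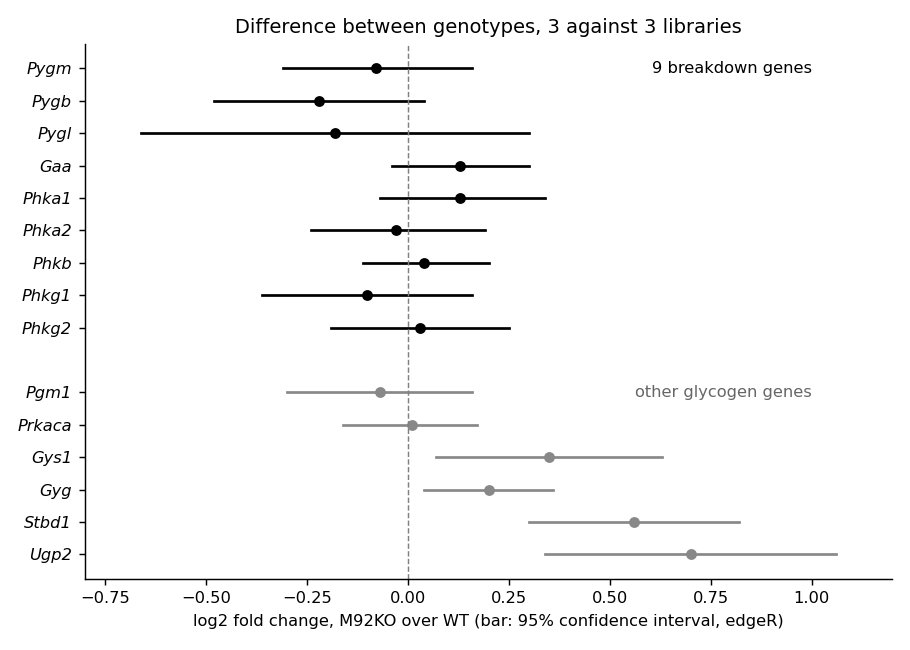
Log2 fold change of M92KO over WT (point) with its 95% confidence interval from edgeR (bar) for the 9 breakdown genes in black and 6 other genes of glycogen metabolism and its control in grey, from 3 libraries a group. The intervals of all 9 breakdown genes include 0. Those of Gys1, Gyg, Stbd1 and Ugp2 lie above 0 before adjustment for the number of genes tested. They are among the genes with the smallest unadjusted p-values of their lists and do not stand for the lists. Of the 14 synthesis and phosphatase 1 targeting genes, 8 had log2 fold changes above 0 and 6 below, with a median of 0.03.

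Levels of different genes were compared as CPM per kilobase of annotated exon. In WT muscle the order was Pygm at 2262 ± 201, Phka1 at 138 ± 15.1, Phkg1 at 125 ± 8.53, Phkb at 66.4 ± 2.58 and Gaa at 49.5 ± 1.59 (SD, n = 3 each). Phka2 at 2.82, Phkg2 at 2.51, Pygb at 2.29 and Pygl at 0.376 followed far below. Pygm thus exceeded the next gene, Phka1, 16.4-fold in WT and 14.2-fold in M92KO muscle. In WT mice Phka1 and Phkg1 did not differ beyond their spread, and neither did Phka2 and Phkg2. M92KO muscle had the same order, with 2145 ± 121 for Pygm and 152 ± 3.56 for Phka1 against 117 ± 18.2 for Phkg1. The order of the kinase subunits and the lead of Pygm rested on the length used. Divided by the longest transcript, Phkg1 came to 344 in WT and 321 in M92KO mice, above Phka1 at 141 and 155, because its annotated exons span 6509 bases and its longest transcript 2374 bases. Pygm then exceeded the next gene, Phkg1, 7.37-fold in WT and 7.49-fold in M92KO mice.

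**Figure D3:**
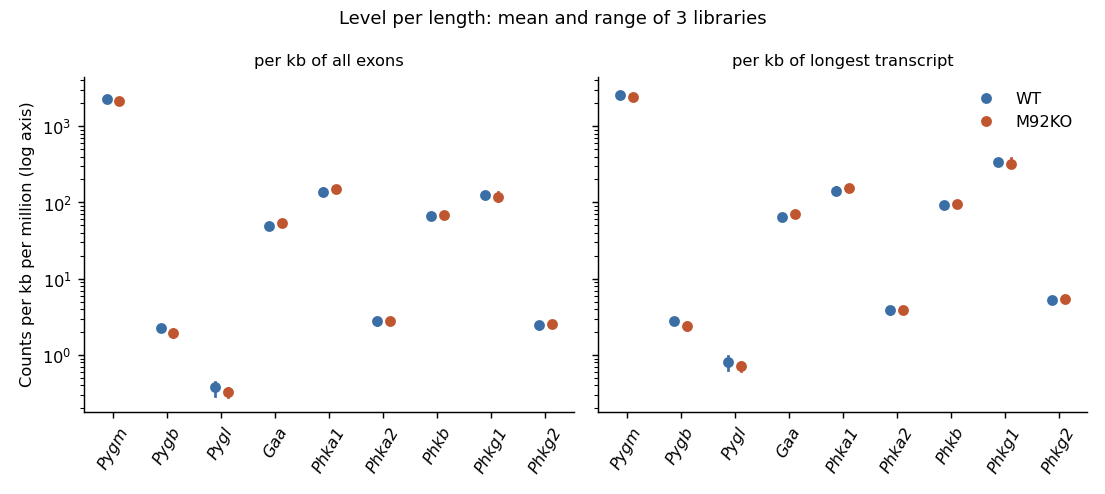
Level of each gene as CPM per kilobase (log axis), with the mean and range of 3 libraries in each genotype, per kilobase of all exons (left) and of the longest transcript (right). The muscle forms Pygm, Phka1 and Phkg1 lie far above Pygb, Pygl, Phka2 and Phkg2 with either length, and Phkg1 passes Phka1 with the longest transcript.

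Ratios inside a library do not depend on library size, and 7 of them were compared between the genotypes with exact two-sided permutation tests. The smallest exact p-value possible was 0.1, so no ratio could pass the threshold used for the genes. The tests therefore cannot decide whether a ratio differed. P-values adjusted over the 7 ratios lay between 0.56 and 0.8, and the ranges of the genotypes overlapped in each of the 7. For the balance of breakdown and synthesis, Pygm was set against Gys1, the glycogen synthase of muscle, whose exons overlap those of Ruvbl2. The count ratio was 9.19, 10.4 and 11.6 in WT and 10.2, 6.68 and 6.93 in M92KO mice. The second and the third M92KO libraries lay below all WT libraries and the first lay among them (log2 difference -0.41, or -0.6 without the first M92KO library, exact p = 0.2, adjusted p = 0.56). Gys1 itself was at 727, 693 and 688 CPM in WT and at 720, 982 and 984 CPM in M92KO mice, with an edgeR adjusted p-value of 0.314. Against Ugp2, a partner chosen after its values were seen, the count ratio of Pygm was 4.76, 5.33 and 7.13 in WT and 4.57, 2.75 and 2.98 in M92KO mice. These ranges were apart, though the first M92KO library nearly reached the lowest WT library (log2 difference -0.76, exact p = 0.1, the smallest possible).

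Within phosphorylase kinase, the muscle to liver ratio of alpha subunits was 55.3, 44.2 and 52.7 counts per count in WT and 54.6, 56.9 and 58.0 in M92KO mice (exact p = 0.2). The corresponding ratio of gamma subunits was 80.3, 75.3 and 88.0 in WT and 84.7, 64.6 and 72.5 in M92KO mice (exact p = 0.4). Against Phkb, levels were taken per kilobase of annotated exon. Divided by the longest transcript, Phka1 came to 141, Phkg1 to 344 and Phkb to 92.1 in WT mice, so the sizes given here rest on the length used. Per exon length, alpha subunits exceeded Phkb by 0.97 to 1.19 on the log2 scale in WT and by 1.15 to 1.19 in M92KO mice. Gamma subunits exceeded Phkb by 0.91, 0.94 and 0.99 in WT and by 1.09, 0.6 and 0.69 in M92KO mice. The genotypes overlapped in both, and in the gamma ratio the first M92KO library lay above WT while the other two lay below it. Without it the log2 difference was -0.3 in place of -0.15 for gamma subunits to Phkb, -0.24 in place of -0.14 for Phkg1 to Phkg2 and -0.02 in place of -0.16 for Pygb to Pygm.

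**Figure D4:**
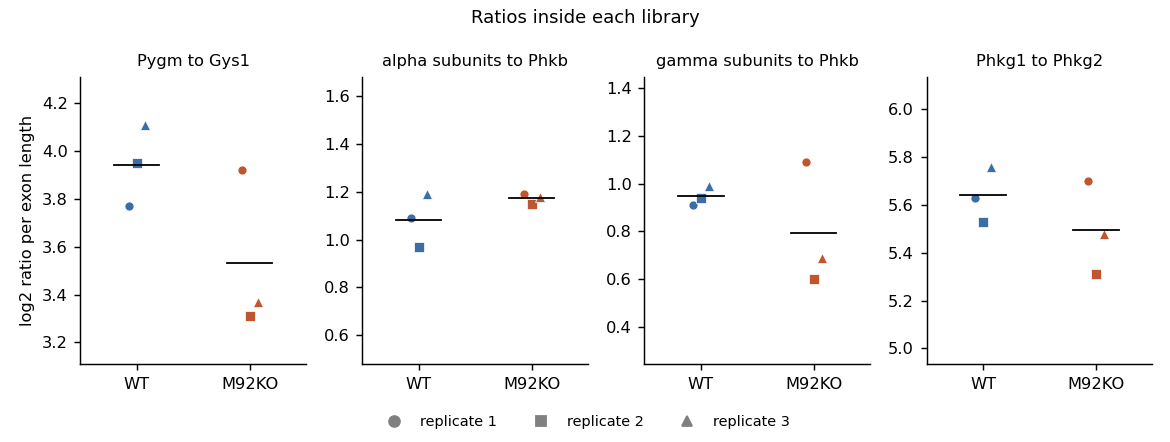
Log2 ratios per exon length inside each library for Pygm to Gys1, alpha subunits to Phkb, gamma subunits to Phkb and Phkg1 to Phkg2, with a line at each group mean, a symbol for each replicate number and panels of equal height in log2 units. The genotypes overlap in all 4 panels, and the first M92KO library lies apart from the second and the third in Pygm to Gys1 and in gamma subunits to Phkb.

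Among 8745 genes at 10 CPM or more, those whose log2 CPM followed Pygm closely over the 6 libraries included Klf15, Atl2, Idh3g and Ddx49, with Pearson's r of 0.98 to 0.983 as a description. They were picked as the highest correlations among all these genes over only 6 libraries, so r this high does not show a link to Pygm. Klf15, a transcription factor, was at 49.5, 64.1 and 85.8 CPM in WT and at 70.1, 51.8 and 57.6 CPM in M92KO mice, the library order of Pygm except at the low end. Among the other members, r with Pygm was 0.843 for Phkg1 and 0.728 for Phka2, and between -0.0134 and 0.257 for Gaa, Phka1, Phkb, Phkg2 and Pygb. These points share their libraries and scaling.

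The neighbouring steps of the pathway were taken from lists. The phosphoglucomutase genes Pgm2l1 and Pgm2, whose family interconverts glucose phosphates, had log2 fold changes of -0.08 and -0.11 (edgeR adjusted p = 0.714 and 0.755). For calmodulin, the delta subunit of the kinase, Calm2 and Calm3 had log2 fold changes of -0.02 and -0.09 (edgeR adjusted p = 0.949 and 0.701). All of these genes overlapped between the genotypes.

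Adrenergic and cAMP input to the kinase was represented by 11 genes, with a median of -0.06. Of these, 1 gene had an unadjusted p-value under 0.05, beside 12.4% of all genes, and was lower in M92KO mice. It was Pde4d, a phosphodiesterase that breaks down cAMP, at 289, 331 and 371 CPM in WT and 240, 253 and 242 CPM in M92KO mice. All M92KO libraries lay below all WT libraries (log2 fold change -0.43, edgeR adjusted p = 0.179). Prkar1b, a regulatory subunit of protein kinase A, had a log2 fold change of -0.5 from a WT level of 1.4 ± 0.163 CPM (SD, n = 3, edgeR adjusted p = 0.413). Its M92KO values also lay below all WT values, and ranges were apart in 18.4% of all genes.

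The lysosomal glycogen route was represented by 12 genes, with a median of 0.02. Of these, 1 gene had an unadjusted p-value under 0.05, beside 12.4% of all genes, and was higher in M92KO mice. It was Stbd1, which binds glycogen, at 70.1, 51.3 and 64.6 CPM in WT and 84.5, 96.4 and 92.9 CPM in M92KO mice, with the groups apart (edgeR adjusted p = 0.179). Tfeb, a regulator of lysosomal genes, and Lamp1, a lysosomal membrane protein, had log2 fold changes of 0.16 and 0.07 (edgeR adjusted p = 0.528 and 0.702). The genotypes overlapped in Tfeb, while the M92KO values of Lamp1 lay above all its WT values. Glycogen synthesis and phosphatase 1 targeting were represented by 14 genes with a median of 0.03. At the same unadjusted threshold 3 were higher and 1 was lower in M92KO mice, beside 12.4% of all genes in either direction. The higher ones were Ugp2, which makes UDP-glucose, Gys1 and the primer Gyg, at log2 fold changes of 0.70, 0.35 and 0.20. The lower one was Ppp1r3d at -0.45, named after its values were seen. In all these lists 0 genes had an edgeR adjusted p-value under 0.05. Whether the synthesis genes differed from the 9 breakdown genes in their response was not tested.

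The remaining marker lists described the makeup of the samples. Of the 10 fibre markers, 1 (Myh2, a fast myosin heavy chain) had an unadjusted p-value under 0.05 and higher values in M92KO mice, and of 4 satellite cell markers likewise 1. Lower values in M92KO mice with an unadjusted p-value under 0.05 were found for 1 of 8 slow fibre, 2 of 9 macrophage and leukocyte, 3 of 8 Schwann cell, 1 of 7 smooth muscle and pericyte, 1 of 7 endothelial and 3 of 7 fibroblast markers. The count was 0 of 7 for fat cell and 0 of 5 for red cell markers, and 0 markers in any list passed an edgeR adjusted p-value of 0.05. These counts stand beside 12.4% of all genes in either direction. All 7 fat cell markers tested and all 5 red cell markers nevertheless had log2 fold changes above 0, with medians of 0.62 and 0.66. The groups overlapped in every one of them, and single libraries weighed heavily. Adipoq was at 0.931, 0.673 and 1.22 CPM in WT and at 1.01, 2.05 and 0.716 CPM in M92KO mice. The red cell sum was 214, 223 and 74 CPM in WT and 330, 143 and 336 CPM in M92KO mice. The slow fibre sum ran from 245 to 332 CPM in WT and from 178 to 275 CPM in M92KO mice. Most of that sum came from Myl3, Tpm3 and Atp2a2. Myh7, the slow myosin heavy chain, stood at 6.15 ± 5.7 CPM in WT and 5.33 ± 3.64 CPM in M92KO mice (SD, n = 3 each). The part of these cell types in the values of the breakdown genes was not tested.

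The promoters of the 9 genes were compared in base composition. In a window of 300 bases around the start (RefSeq, GRCm38.p6), Pygm held 4 CG pairs and Phkg1 held 2, beside a median of 7 over 32851 promoters. Phkg2 held 11 and the other 6 genes between 21 and 38, among them the muscle form Phka1 with 25. The E-box letters CANNTG, the same on both strands, were found 3 times in Pygm and in Gaa, 5 times in Phkg1, and in 6 of 9 genes in all, beside 72.3% of all promoters.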

How the data were processed

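SMARTer libraries were sequenced from the Gas of 3 WT and 3 M92KO mice, and the authors deposited raw counts of reads for 34714 gene symbols. The labels name the builds GRCm38 and mm10, while the aligner, the counting program and the strand setting are not given in the sources used here. The main test was edgeR 4.0.16 in R 4.3.3 (TMM, filterByExpr with a minimum count of 10 and a minimum total count of 15, glmQLFit and glmQLFTest, no covariate). Benjamini-Hochberg adjustment ran over the whole set of 15788 genes. The study names limma on quantile-normalized log2 values, which was kept as an alternative because counts ask for a count model. Ratios were tested with exact two-sided permutation tests in Python 3.11.15 (scipy 1.17.1). Positions, lengths and 3′-UTRs came from GENCODE M21, which matched 25731 symbols directly and 419 by a synonym, the 9 genes among them. miRNA and promoter sequences came from RefSeq tables of GRCm38.p6.

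The genes and lists were chosen with earlier results of these data known. Named were all 9 genes, Gys1, up to 3 genes with the smallest unadjusted p-value in each pathway list, and the 5 genes most correlated with Pygm, of which some are not reported here. Ugp2 as a ratio partner, Ppp1r3d and Myh2 were named after their values were seen, and the plot of fold changes also holds Pgm1 and Prkaca. The replicates are separate mice. Alternatives were DESeq2 1.42.0, its size factors, other filters, the study's steps with limma 3.58.1, GC content and length offsets, a replicate block and leaving out each library. A comparison of protein sequences was not run.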

Additional observations from a re-analysis of the deposited data

How the results depend on the processing

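With 3 libraries a group, exact tests cannot go below p = 0.1, and folds within the confidence intervals given could not be resolved. Pygm, Pygb, Pygl, Gaa, Phka1 and Phkg1 kept their direction under all 14 alternatives, and the smallest adjusted p-value of any of the 9 genes was 0.116 (Phkg1, without the first M92KO library). Of the breakdown genes, the number with an unadjusted p-value under 0.05 was 1 in place of 0 with quantile normalization and limma (Pygm) and with GC content and length offsets (Gaa). When 1 library was left out it ranged from 0 to 1, with Phka1 counted without the third WT library (log2 fold change 0.22), Phkg1 without the first M92KO library (-0.24) and Pygb without the third M92KO library (-0.32). Other libraries moved the same log2 fold changes the other way, Phka1 to 0.07 without the second WT library, Phkg1 to -0.03 without the second M92KO library and Pygb to -0.13 without the first. Pygm ranged from -0.13 to -0.01, Pygl from -0.34 to -0.04 and Gaa from 0.07 to 0.18.

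Over all genes, the count at an unadjusted p-value under 0.05 was 1955 and ranged from 1222 (without the second WT library, and 1272 without the third) to 2984 (without the first M92KO library). The count at an adjusted p-value under 0.05 was 0 and became 6 without a filter, 312 with DESeq2 and 42 with quantile normalization and limma. With 1 library left out it ranged from 0 to 401, the highest without the first M92KO library, with 5 without the first WT library and 1 without the second M92KO library. The cause was not tested.

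Deviations of same-numbered libraries from their group means correlated at 0.081, 0.038 and 0.015. Those of libraries with unlike numbers correlated at -0.069 to 0.036. With 3 libraries a group, values this near 0 cannot decide whether the replicate numbers pair the mice. A replicate block gave 2 genes at an adjusted p-value under 0.05, with or without the offsets, which were combined with the block after seeing the data, and 1691 genes at an unadjusted p-value under 0.05. The third WT library correlated better with the second M92KO library than with its own number, while the first and the second WT libraries correlated best with their own.

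Directions that turned belonged to changes near 0. Phka2 was at 0.00 with limma and with the offsets, at 0.01 with the offsets and the block, and from -0.1 to 0.03 with 1 library left out. Phkb was at -0.02 with limma, and Phkg2 ranged from 0.00 to 0.07 with 1 library left out. The log2 ratio of Pygl to Pygm ranged from -0.33 to 0.05 with 1 library left out. The other 6 ratios kept their direction when a library was left out, with Pygm to Gys1 between -0.6 and -0.3.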
